A study of Mus musculus with 6 samples.

Results

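Genes of the secretory pathway and of the response to stress in the endoplasmic reticulum (ER) were compared in the inner enamel epithelium (IEE) of the mandibular first molar at E18.5. The set held 10 genes, which were found by their symbols among the 18152 genes of the deposited table, and all 10 had enough reads to be tested. The table covers 3 libraries from *Kdf1 fl/fl* mice, which the sample labels call control or WT, and 3 libraries from *K14-Cre;Kdf1 fl/fl* mice, which the labels call cKO (control and knockout below). Both groups carry the floxed *Kdf1* alleles on a C57BL/6J background, and neither was treated. The knockout group also carries Cre recombinase under the keratin 14 promoter. The *Kdf1* alleles are thus deleted in epithelial cells, while mesenchymal cells keep the floxed alleles. Earlier work cited by the paper found Kdf1 protein in the early dental epithelium and none in the mesenchyme. The methods describe laser capture of the IEE from frozen sections. How many embryos went into a library is not given in the sources used here. The p-values below therefore measure the spread between these libraries.

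The ER is where proteins meant for secretion or for membranes are folded. When unfolded proteins build up there, the sensors IRE1, PERK and ATF6 start the unfolded protein response (UPR). IRE1 splices *Xbp1* mRNA, PERK slows translation but lets the transcription factor ATF4 be made, and ATF6 is cut in the Golgi to release a transcription factor, and together these raise chaperones, folding enzymes and degradation factors. The IEE gives rise to ameloblasts, which secrete the enamel matrix and need a large ER.

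Library totals ran from 14713918 to 16675133 counts. *Kdf1* was at 44.3 to 52.7 CPM (counts per 1000000 counts of the TMM-scaled library) in the control libraries and at 0 to 0.0629 CPM in the knockout libraries, so the labels fit the targeted gene. Epithelial markers such as *Krt5* and *Sp6* were abundant in every library, though their knockout means were 56.2% and 59.9% of the control means. The mesenchymal collagen gene *Col1a1* was present too, at 2062 to 12956 CPM in control and 4368 to 7036 CPM in knockout libraries. Its mean was lower in the knockout group (log2 fold change −0.46). By contrast, 10 of 14 dental papilla and odontoblast markers had a higher mean there, with a median log2 fold change of 1.49 for the 14. Enamel matrix genes differed widely among the controls, with *Amelx* at 1244, 4584 and 10697 CPM in replicates 1, 2 and 3. In bulk samples of this kind, fewer cells of a type and less RNA per cell cannot be told apart.

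The ER chaperones and lectins had lower means in knockout mice, while *Dnajb9* and *Herpud1* were nearly level between the groups. *Hspa5* (gene identifier 14828), which encodes BiP, the main Hsp70 chaperone of the ER, was at 874, 841 and 1459 CPM in the 3 control libraries. It was at 456, 594 and 544 CPM in the 3 knockout libraries. All knockout libraries lay under all control libraries, and replicate 3 of the control group stood well above the other two. The means were 1058 ± 348 and 531 ± 69.9 CPM (SD, n = 3 per group), so the knockout mean was 50.2% of the control mean. Its log2 fold change was −0.99 (SE 0.24). The quasi-likelihood test of edgeR gave an adjusted p (Benjamini-Hochberg) of 0.0837, or 0.0370 with the replicate number as a block. The block pairs same-numbered libraries, a pairing read from these data alone, so every p-value with the block depends on it.

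*Hsp90b1* (22027) encodes GRP94, the Hsp90 of the ER, which folds integrins and other client proteins. It was at 1290.2, 1216 and 1791 CPM in control and at 839, 1280.1 and 903 CPM in knockout libraries. Here the groups overlapped, since replicate 2 of the knockout group lay above replicate 2 of the controls. The log2 fold change was −0.51 (SE 0.23), with an adjusted p of 0.224 without and 0.194 with the block (edgeR, Benjamini-Hochberg).

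*Pdia4* (12304) encodes a protein disulphide isomerase of the ER. It was at 339, 320.0 and 526 CPM in control and at 205, 254 and 219.5 CPM in knockout libraries, without overlap. Its log2 fold change of −0.80 (SE 0.21) came with an adjusted p of 0.0908 without and 0.0537 with the block (edgeR, Benjamini-Hochberg).

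*Calr* (12317) and *Canx* (12330) encode calreticulin and calnexin, the soluble and the membrane-bound lectin chaperone that hold newly made glycoproteins until they are folded. *Calr* was at 1357, 1328 and 2226 CPM in control and at 773, 1244 and 869 CPM in knockout libraries. *Canx* was at 420.0, 409.6 and 553 CPM and at 292, 427 and 337 CPM in the same order. The groups did not overlap for *Calr* but did for *Canx*, whose knockout replicate 2 was above 2 of the 3 controls. The log2 fold changes were −0.77 (SE 0.27) for *Calr* and −0.39 (SE 0.19) for *Canx*. Neither passed the threshold, with adjusted p values of 0.150 and 0.254 (edgeR, Benjamini-Hochberg).

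**Figure D1:**
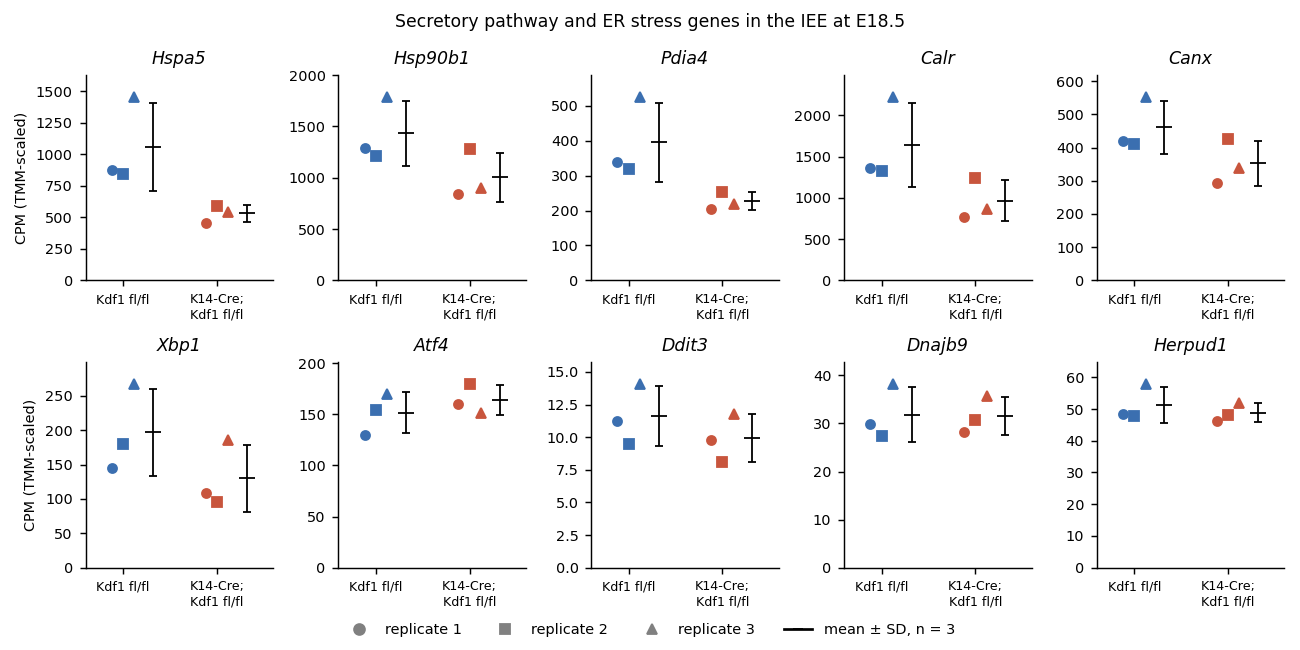
Level of each of the 10 genes in CPM (vertical axes, each from 0) in the 3 control libraries (blue) and the 3 knockout libraries (red), where the symbol shows the replicate number and the black mark the mean ± SD (n = 3). *Hspa5*, *Pdia4* and *Calr* show no overlap between the groups, and replicate 3 is the highest control in all 10 panels.

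Among the transcription factors, *Xbp1* was lower on average and *Atf4* and *Ddit3* differed by less than their spread. *Xbp1* (22433), whose spliced mRNA encodes the IRE1-dependent factor, was at 145, 179.7 and 267 CPM in control and at 108, 95.3 and 186 CPM in knockout libraries. Within each replicate number the knockout library was the lower one, although replicate 3 of the knockout group exceeded the first 2 controls. The log2 fold change was −0.60 (SE 0.31), with an adjusted p of 0.278 in edgeR and 0.0390 in edgeR with the block, both with Benjamini-Hochberg adjustment. Gene counts do not separate the spliced from the unspliced *Xbp1* mRNA.

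*Atf4* (11911) encodes the factor whose translation PERK permits, so its mRNA level need not follow its protein. It was at 129.9, 155 and 170.0 CPM in control and at 160.2, 179.7 and 151 CPM in knockout libraries, and the groups overlapped. It was the only member with a higher mean in the knockout group, with a log2 fold change of 0.11 (95% interval −0.21 to 0.43, adjusted p = 0.644, edgeR with Benjamini-Hochberg adjustment). *Ddit3* (13198) encodes CHOP, a factor linked to cell death under lasting ER stress. It was the least abundant member, at 11.2, 9.51 and 14.1 CPM in control and 9.81, 8.12 and 11.8 CPM in knockout libraries. It was lower in the knockout library of each replicate number, though the groups overlapped, with a log2 fold change of −0.23 (95% interval −0.78 to 0.32, adjusted p = 0.580, edgeR with Benjamini-Hochberg adjustment).

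*Dnajb9* (27362) encodes ERdj4, a co-chaperone of BiP, and *Herpud1* (64209) encodes a membrane protein of the machinery for ER-associated degradation (ERAD). *Dnajb9* was at 29.9, 27.4 and 38.2 CPM in control and at 28.2, 30.6 and 35.8 CPM in knockout libraries. *Herpud1* was at 48.4, 47.8 and 57.9 CPM and at 46.4, 48.3 and 52.0 CPM. In both genes the knockout values lay inside or next to the range of the controls. The log2 fold change of *Dnajb9* was −0.01 (95% interval −0.42 to 0.39) and turned positive under other scalings. That of *Herpud1* was −0.07 (95% interval −0.36 to 0.22) and turned positive without replicate 3 of the control group. The intervals leave room for changes larger than these estimates, from −0.42 to 0.39 for *Dnajb9* and from −0.36 to 0.22 for *Herpud1*.

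**Figure D2:**
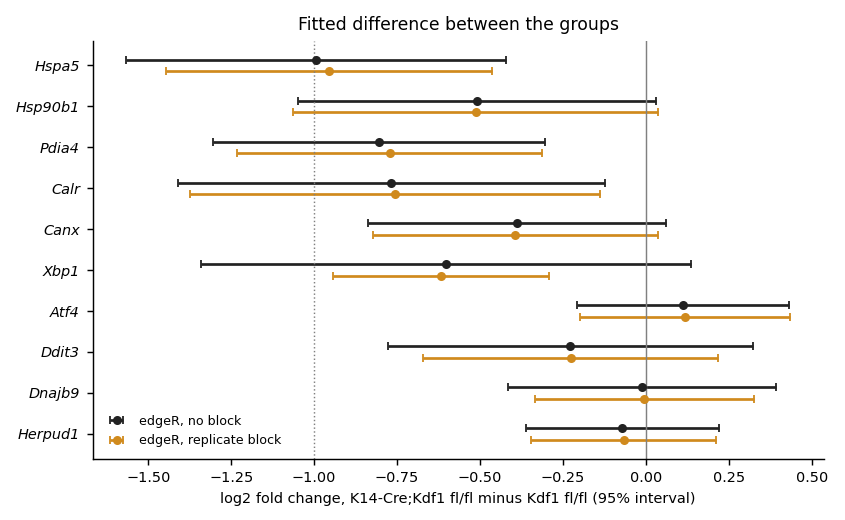
Log2 fold change of knockout over control libraries (horizontal axis) for the 10 genes, with 95% intervals from edgeR without (black) and with (orange) the replicate number as a block. The intervals of *Hspa5*, *Pdia4* and *Calr* lie below 0 in both fits and that of *Xbp1* only with the block, and the dotted line marks a log2 fold change of −1.

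Genes were first called by a pair of limits, a log2 change of 1 or more in size and an adjusted p of at most 0.05. In edgeR 0 of 10 members met both, beside 0.432% of the 14131 genes tested (0.290% lower in the knockout group). By the adjusted p alone edgeR again called 0 of 10, beside 0.545% of all genes (0.368% lower). At an adjusted p of at most 0.1, *Hspa5* and *Pdia4* were called, or 2 of 10 beside 8.36% (4.02% lower). An unadjusted p of at most 0.05 was reached by *Hspa5*, *Pdia4* and *Calr*, or 3 of 10 beside 24.5% (11.6% lower).

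With the replicate block, *Hspa5* and *Xbp1* had an adjusted p of at most 0.05, or 2 of 10 beside 9.87% of all genes (4.44% lower), and 0 of 10 met both limits, beside 6.09% (1.92% lower). DESeq2 called *Hspa5* (adjusted p = 0.00258) and *Pdia4* (0.0106, both Benjamini-Hochberg), or 2 of 10 beside 12.6% (5.25% lower), and 0 of 10 met both limits, beside 6.94%. All members called were lower in the knockout group. Control and knockout libraries did not overlap for 3 of 10 members, all lower, beside 30.7% of all genes (16.2% lower). The median log2 fold change of the members was −0.45, beside −0.00 over all genes tested, and 9 of 10 had a lower mean in the knockout group, beside 50.5% of all genes.

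The 10 members together took 0.455%, 0.459% and 0.674% of the counts in replicates 1, 2 and 3 of the control group. In the knockout group they took 0.295%, 0.422% and 0.341%, so every knockout library spent a smaller share of its counts on them.

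On the length-scaled TPM scale, the members spanned a wide range of levels. In the control group *Calr* was highest with 1654 ± 407 TPM, followed by *Hsp90b1* with 977 ± 149 and *Hspa5* with 788 ± 207 TPM (SD, n = 3). *Pdia4* stood at 302 ± 67.3 TPM and *Ddit3* was lowest at 22.0 ± 4.98 TPM. The ranges of *Hsp90b1* and *Hspa5* overlapped between libraries, but *Hsp90b1* was the higher in each of the 6 libraries. The ranges of *Canx*, *Atf4* and *Xbp1* overlapped as well, and *Canx* was above *Xbp1* in each of the 3 control libraries. *Pdia4* was above *Atf4* in each control library, at 263, 263 and 380 against 153, 199 and 190.5 TPM. In the knockout group this order was turned around, with *Pdia4* at 177, 202 and 166 and *Atf4* at 212, 222 and 189 TPM.

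Ratios of counts within a library do not depend on how libraries are scaled, and 6 such ratios were computed after the values had been seen. There were 29.3, 30.7 and 38.2 *Hspa5* counts for each *Dnajb9* count in the control libraries and 16.2, 19.4 and 15.2 in the knockout libraries. The ratio of *Hspa5* to *Herpud1* was 18.1, 17.6 and 25.2 against 9.83, 12.3 and 10.5. BiP mRNA was thus lower relative to both *Dnajb9* and *Herpud1* in every knockout library. Within the chaperones, the ratio of *Hspa5* to *Hsp90b1* was 0.678, 0.692 and 0.814 against 0.544, 0.464 and 0.602. The ratio of *Calr* to *Canx* was 3.23, 3.24 and 4.02 against 2.64, 2.91 and 2.58. The ratio of *Hspa5* to *Canx* was 2.08, 2.05 and 2.64 against 1.56, 1.39 and 1.61. These 5 ratios did not overlap between the groups, whereas that of *Ddit3* to *Atf4* did, at 0.0865, 0.0615 and 0.0829 against 0.0612, 0.0452 and 0.0779. Since the pairs of genes were picked from their values, the ratios are a description with no test.

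Replicate 3 was the highest control library for 10 of 10 members, beside 35.0% of all genes tested, from 1.10 times the next library for *Atf4* to 1.67 times for *Hspa5*. The knockout group had no such common library, since replicate 2 was the highest for 6 members, namely the 5 chaperone and lectin genes and *Atf4*. For the other 4, *Xbp1*, *Ddit3*, *Dnajb9* and *Herpud1*, the highest was replicate 3. Without replicate 3 of the control group, the log2 fold changes were −0.69 for *Hspa5*, −0.54 for *Pdia4*, −0.48 for *Calr*, −0.33 for *Xbp1*, −0.32 for *Hsp90b1*, −0.24 for *Canx*, −0.07 for *Ddit3* and 0.20 for *Atf4*. For the last 6 of these this is a move of over 1.5 times. Members without overlap then numbered 3, but the share of all genes was not computed for the remaining libraries. The same control library had the most *Amelx*, as given above, and its part in these differences was not tested.

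**Figure D3:**
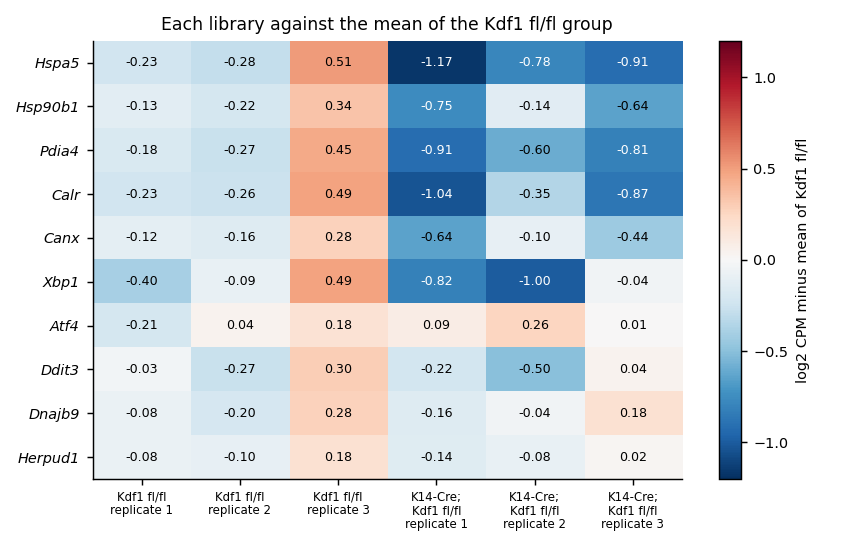
Log2 CPM of each gene (rows) in each library (columns) minus the mean of the 3 control libraries, with the value printed in each cell and blue for lower levels. *Hspa5* ranges from −1.17 to −0.78 in the knockout libraries, whereas *Herpud1* stays between −0.14 and 0.02 there.

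Promoters of the members were searched for the ER stress response element (ERSE), a sequence through which ATF6 and XBP1 act together with the CCAAT-binding factor NF-Y on chaperone genes. The letters searched were CCAAT and CCACG with 9 bases of any kind between them for ERSE, and ATTGG and CCACG with 1 base between them for the shorter ERSE-II, on both strands, in RefSeq windows (GRCm38.p6) of 250 bases before to 50 bases after each annotated start. All 10 members had a window. Each ERSE match contains a CCAAT box. Alone, the box occurred in 9 of 10 members, beside 43.1% of the genes tested that have a window and 37.4% of all windows. The stretches below show the matching letters in capitals and run 5′ to 3′ along the strand of the gene. They are given because the members divide into those with and without a match to these exact letters. Elements with other letters or outside the windows were not searched for.

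*Hspa5*, chr2:34772005-34772063, plus strand: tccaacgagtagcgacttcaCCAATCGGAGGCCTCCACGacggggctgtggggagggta
*Hsp90b1*, chr10:86705513-86705676, minus strand: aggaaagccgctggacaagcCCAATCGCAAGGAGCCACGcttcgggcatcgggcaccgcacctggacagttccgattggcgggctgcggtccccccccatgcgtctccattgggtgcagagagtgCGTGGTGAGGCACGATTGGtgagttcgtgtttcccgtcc
*Calr*, chr8:84847055-84847113, minus strand: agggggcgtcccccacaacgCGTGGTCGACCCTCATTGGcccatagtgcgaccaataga
*Canx*, chr11:50325780-50325838, minus strand: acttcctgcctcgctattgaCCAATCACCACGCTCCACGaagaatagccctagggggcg
*Herpud1*, chr8:94386357-94386407, plus strand: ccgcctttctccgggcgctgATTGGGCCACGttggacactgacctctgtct

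ERSE letters were found for 4 of 10 members, *Hspa5*, *Hsp90b1*, *Calr* and *Canx*, which are the 2 main chaperones and the 2 lectins. *Hsp90b1* held 2 copies, one of them on the opposite strand, as was the single copy of *Calr*. Among the 11222 genes tested that have a window, 19 genes (0.169%) held ERSE letters, and over all windows of this length the share was 0.119%. The ERSE-II letters of *Herpud1* were in 0.0802% of those genes and 0.0365% of all windows. *Pdia4*, *Xbp1*, *Dnajb9*, *Atf4* and *Ddit3* had no match to either in these windows.

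The 4 genes with ERSE letters had log2 fold changes from −0.99 to −0.39, while the 6 members without them ranged from −0.80 to 0.11. Of those 6, *Pdia4* (−0.80) and *Xbp1* (−0.60) lay within the range of the ERSE genes, and *Ddit3* (−0.23), *Herpud1* (−0.07), *Dnajb9* (−0.01) and *Atf4* (0.11) lay above all 4 of them. Of the 15 other tested genes with ERSE letters, 8 had a lower mean in the knockout group, and their median log2 fold change was −0.06, beside −0.01 for all genes with a window. With the block, 3 of the 15 were lower at an adjusted p of at most 0.05, beside 4.44% of all genes, namely the ER protein genes *Creld2* (0.0428), *Syvn1* (0.0387) and *Dnajc3* (0.0493), and *Zfp57* was higher (0.0208, all edgeR with Benjamini-Hochberg adjustment). Without the block none of the 4 passed, with adjusted p values of 0.110, 0.133, 0.128 and 0.0872 in this order (edgeR, Benjamini-Hochberg), and in DESeq2 *Syvn1* (0.0801) and *Dnajc3* (0.0622) did not pass either. *Dnajc3* and *Zfp57* are named after their values were seen. In the same windows TGATGNAA, the letters of sites shared by C/EBP and ATF factors, occurred in *Herpud1* alone among the members and in 2.74% of the genes. TGACGTG, a CRE-like site, occurred in *Hspa5* alone among the members and in 3.10% of the genes.

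**Figure D4:**
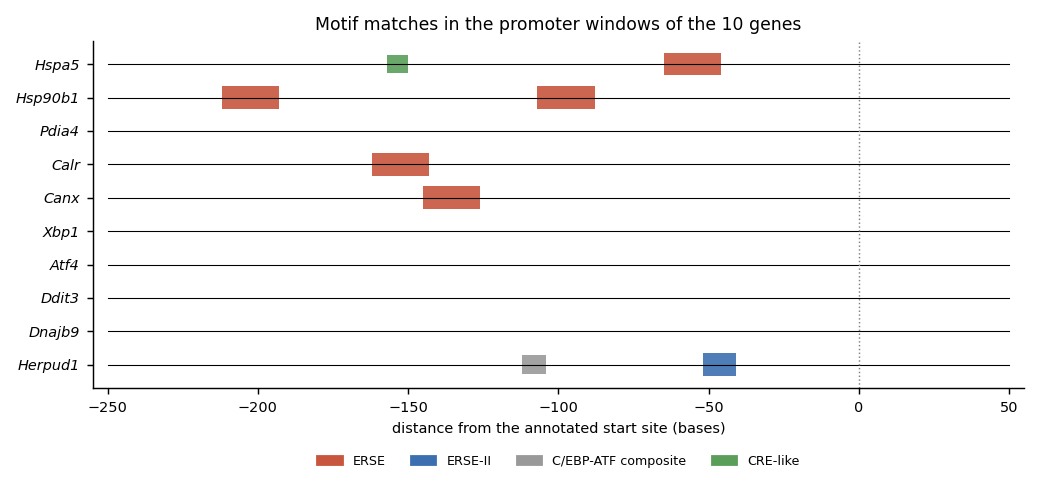
Position of motif matches (coloured boxes) relative to the annotated start site (dotted line, horizontal axis in bases) in the promoter window of each gene. ERSE matches lie in *Hspa5*, *Hsp90b1*, *Calr* and *Canx*, with their nearest edge 47 to 194 bases before the start, and the ERSE-II match of *Herpud1* lies 42 bases before it.

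The other genes of the pathway were taken from 7 lists of ER and secretory genes, which without the members hold 191 tested genes. No list gene passed an adjusted p of 0.05 in edgeR without the block, 47 had an unadjusted p of at most 0.05 (42 lower and 5 higher in the knockout group), and DESeq2 gave 18 (17 lower, 1 higher). These are 24.6% and 9.42% of the list genes, beside 24.5% and 12.6% of all genes, so calls in both directions together were not above the background. For lower genes alone, the 42 and 17 of 191 stand beside 11.6% and 5.25% of all genes. With the block, 14 of 191 genes had an adjusted p of at most 0.05, and all 14 (7.33%) were lower, beside 4.44% of all genes that were lower at that threshold (edgeR, Benjamini-Hochberg). Of the 191 genes, 140 (73.3%) had a lower mean in the knockout group, beside 50.5% of all genes tested, with a median log2 fold change of −0.16. Most of these differences were small.

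ER chaperones and folding enzymes other than the members numbered 40 tested genes, of which 6 (15.0%) were lower and 0 higher with the block, beside 4.44% of all genes that were lower. *Hyou1*, the large Hsp70-like partner of BiP, was at 277 ± 82.2 CPM in control and 142 ± 20.3 CPM in knockout libraries (SD, n = 3), and its log2 fold change was −0.97. *Creld2*, a UPR target, was at 57.6 ± 27.4 and 27.0 ± 3.77 CPM, with −1.09. *Uggt1*, the sensor that returns misfolded glycoproteins to calnexin and calreticulin, was at 166 ± 11.2 and 119 ± 5.21 CPM, with −0.49. The thioredoxin-like *Txndc11* had −0.55. Block adjusted p values were 0.0482, 0.0428, 0.0449 and 0.0406 in this order (edgeR, Benjamini-Hochberg). The groups did not overlap in any of the 4, but these genes were named by their p, so this adds no support. Of all 40 genes, 13 were lower without overlap, beside 16.2% of all genes tested.

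Among the UPR sensors and their activators, 2 of 13 tested genes (15.4%) were lower with the block and 0 higher, beside 4.44% of all genes that were lower. *Atf6b*, a relative of ATF6, was at 136, 116 and 145 against 79.0, 92.1 and 74.2 CPM, and *Eif2s1*, the translation factor subunit that PERK phosphorylates, at 81.1 ± 3.16 against 57.6 ± 1.86 CPM. Their log2 fold changes were −0.69 and −0.49 (block adjusted p = 0.0368 and 0.0411, edgeR with Benjamini-Hochberg adjustment). Both had groups without overlap, which adds no support, since they were named by their p. Of the 13 genes, 5 were lower without overlap, beside 16.2% of all genes tested. Of 28 tested PERK and ATF4 targets, 18 (64.3%) had a lower and 10 a higher mean, beside 50.5% of all genes with a lower mean. With the block 2 (7.14%) were lower, beside 4.44% of all genes. These were *Atf5*, a stress-responsive transcription factor gene, with −0.72 and *Vldlr*, a lipoprotein receptor gene, with −0.58 (block adjusted p = 0.0198 and 0.0448, edgeR with Benjamini-Hochberg adjustment).

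In the lists of ERAD, the translocon group, the COPII coat and the COPI coat, 1 gene each was lower with the block, or 4%, 2.70%, 3.12% and 5.88% of the tested genes, near the 4.44% of all genes. In the ERAD list of 25 tested genes this was *Syvn1*, which encodes the ubiquitin ligase HRD1, at 119 ± 21.6 against 81.0 ± 14.6 CPM, with −0.56. The translocon, signal peptidase and oligosaccharyltransferase list had 30 of 37 genes with a lower mean, and *Srp54b* alone was lower with the block, with −0.52 (adjusted p = 0.0452, edgeR with Benjamini-Hochberg adjustment). *Srp54b* has close copies in *Srp54a* and *Srp54c*, so its reads may be divided among them. The COPII list, for the coat of vesicles that leave the ER, had 26 of 32 genes with a lower mean, and *Sec23b*, a coat subunit, was at 109 ± 31.5 against 63.9 ± 1.34 CPM. In the list of the COPI coat and KDEL receptors, which bring escaped ER proteins back, *Gbf1*, an activator of the coat's ARF GTPase, was at 182 ± 22.8 against 113 ± 9.20 CPM. The last 2 genes had block adjusted p values of 0.0388 and 0.0290 (edgeR, Benjamini-Hochberg), and each was the single gene of its list past the threshold.

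**Figure D5:**
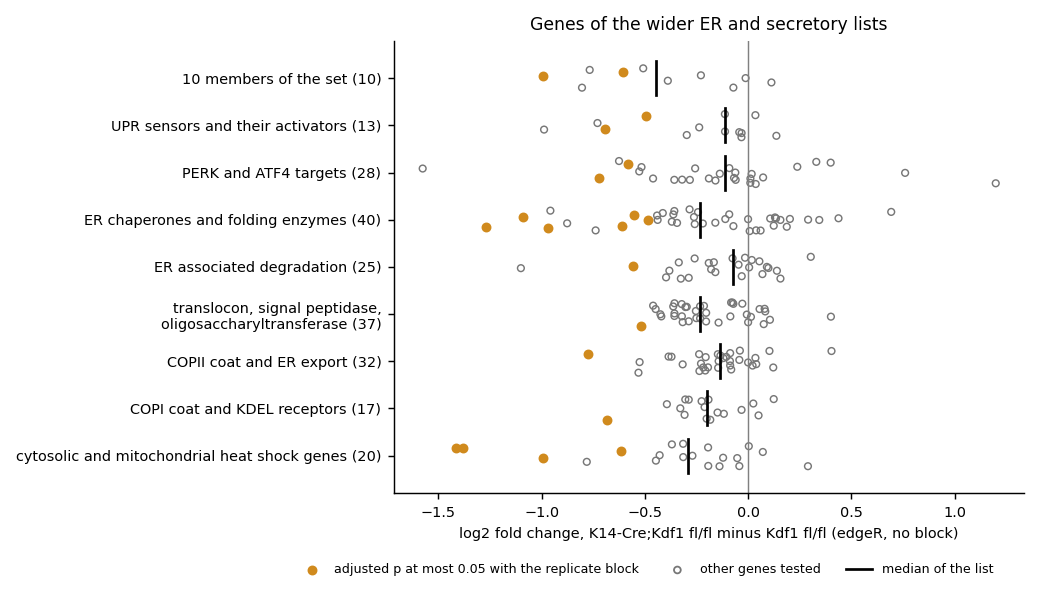
Log2 fold change between the groups (horizontal axis, edgeR without the block) for each tested gene of the 10 members, the 7 ER and secretory lists and the heat shock list, with list sizes in parentheses, medians as black bars and genes at an adjusted p of at most 0.05 with the block in orange. All orange points lie below 0, and the list medians run from −0.45 for the members to −0.08 for ERAD.

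Chaperones outside the ER had lower means as well. Of 20 tested cytosolic and mitochondrial heat shock genes, 17 (85%) had a lower mean, beside 50.5% of all genes. With the block 4 (20%) were lower, beside 4.44% of all genes. At an adjusted p of 0.05 without the block edgeR called 0, where 8 (40.0%) had an unadjusted p of at most 0.05 and DESeq2 gave 7 (35.0%), beside 24.5% and 12.6% of all genes. *Stip1*, a co-chaperone that links Hsp70 to Hsp90, was at 191 ± 17.6 against 124 ± 1.38 CPM, with −0.61. *Hspa1b* and *Hspa1a*, the stress-inducible Hsp70 genes, had log2 fold changes of −1.38 and −1.41, and as near-identical copies they can exchange reads. *Hsph1*, a partner of Hsp70, had −0.99. The median log2 fold change of this list was −0.29.

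Enamel matrix genes, the main cargo of the ameloblast ER, were lower in the knockout libraries by far more than the chaperones. *Amelx*, which encodes amelogenin, was at 2.59, 51.8 and 224 CPM in the knockout libraries, all under the controls given above. Its log2 fold change was −5.89, beside −5.62 for *Enam* (enamelin) and −4.59 for *Mmp20* (the enamel matrix protease enamelysin). For *Odam* and *Ambn*, whose groups overlapped, it was −2.003 and −2.33. With the block, 5 of 5 tested genes of this list were lower at an adjusted p of at most 0.05 (edgeR, Benjamini-Hochberg). Of all genes, 4.44% were lower at that threshold. Without the block 0 of 5 were, beside 0.368% of all genes, while 5 had an unadjusted p of at most 0.05, beside 11.6%. DESeq2 gave 3 lower genes (Benjamini-Hochberg), beside 5.25% of all genes.

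Summed levels of cell type markers moved with the groups for some lists, with overlap between the groups for all but neutrophil markers, and their part in the values above was not tested. The 11 dental epithelium markers, led by *Krt5* and *Sp6*, summed to 11221 to 17127 CPM in control and 6958 to 11716 CPM in knockout libraries, and 9 of 11 had a lower mean. The 14 dental papilla and odontoblast markers, led by *Col1a1* and *Col1a2*, summed to 4517 to 22838 and 11220 to 12880 CPM, with 10 of 14 higher on average. The other 4, *Dspp*, *Dmp1*, *Col1a2* and *Col1a1*, were lower on average (log2 fold changes −3.45, −1.51, −0.53 and −0.46). Taken singly, 6 of the 14 were higher and 1 lower without overlap, beside 30.7% of all genes tested in either direction. The 8 osteoblast markers, led by *Alpl* and *Ibsp*, summed to 1072 to 1579 and 963 to 1284 CPM, with 5 of 8 lower on average. Endothelium markers, led by *Cdh5* and *Pecam1*, summed to 303 to 383 and 352 to 1025 CPM, with 9 of 9 higher on average. Immune cell markers, led by *Csf1r* and *Cd68*, summed to 35.7 to 72.7 and 61.6 to 216 CPM, with 9 of 9 higher on average. Neutrophil markers, led by *S100a9* and *Ngp*, summed to 3.33 to 5.65 and 30.4 to 77.3 CPM, with 6 of 6 tested higher on average. Skeletal muscle markers, led by *Acta1* and *Tnnt3*, stayed at 1.76 to 4.91 CPM over all libraries. Erythroid markers, led by *Hba-a1* and *Hbb-bs*, summed to 831 to 1302 and 799 to 1281 CPM. No marker of these lists was at 0 in all libraries.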

How the data were processed

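RNA-seq of 6 IEE libraries (3 per genotype, E18.5) was analysed from 1 deposited table. The estimated counts are the authors' reads per gene without normalisation (10.9% to 11.5% of values in a library not whole), the deposited TPM values are the authors' length-scaled levels and the deposited FPKM values were not used. The submitters' processing notes list BWA 0.7.12, Picard 2.6.0 and StringTie without roles. The genome build is not given in the sources used here, so the only coordinates are those of RefSeq promoter windows. The labels name TRIzol and a TruSeq kit with total RNA as input, whereas the paper names laser capture.

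Counts were rounded. In R 4.3.3, edgeR 4.0.16 was run with filterByExpr (14131 genes), TMM factors of 0.950 to 1.03, robust quasi-likelihood fits and Benjamini-Hochberg adjustment over all genes tested. CPM used the TMM-scaled totals, and a count of 0 allows 3 counts, or 0.182 to 0.198 CPM, for counting error only. SEs were derived from the F statistics. DESeq2 1.42.0 and limma 3.58.1 gave alternatives. The procedure was tested on simulated counts.

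Same-numbered libraries of the 2 groups had deviations from the group means that correlated at 0.135, 0.324 and 0.499 across genes. The numbers were read as pairs from the data alone (knockout 1 correlated slightly better with control 2, at 0.144). The p-values with the block therefore depend on a pairing picked from the same values that they test. Among the members, replicate 2 was the lowest control for 8 but the highest knockout library for 6. Fits with and without the block are given. Replicates differed by at least 35.4 times the sampling variance, so none was a duplicate.

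The members and lists were chosen with earlier results of these data known. From each list other than markers, the genes named are those at an adjusted p of at most 0.05 without or with the block (at most 4, by p), and from the marker lists the 2 most abundant. *Dspp*, *Dmp1* and *Ambn* were named after their values were seen. Columns of the authors' group means were not used. TPM totals are equal in every library, so TPM keeps no depth.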

Additional observations from a re-analysis of the deposited data

How the results depend on the processing

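The number of members at an adjusted p of at most 0.05 was 0 in edgeR, 2 with the replicate block, 2 in DESeq2 and 2 at a limit of 0.1, and 0 to 0 when libraries were left out in turn. The unadjusted p alone, in place of both limits, was reached by 3 members. For the wider lists, the genes meeting both limits were 2 of 191 with the block, beside 6.09% of all genes, and 2 in DESeq2, beside 6.94%. The unadjusted p alone gave 47, beside 24.5%. At an adjusted p of at most 0.05 there were 14 with the block, beside 9.87%, and 18 in DESeq2, beside 12.6%. A limit of 0.1 gave 13, beside 8.36%, and 0 to 1 passed the limit of 0.05 with a library left out. Of all genes tested, 61 met both limits and 77 the adjusted p. These counts became 860 and 1395 with the block, 980 and 1786 in DESeq2, 7 and 7 with DESeq2 size factors in edgeR, 9 and 9 with library size alone, 103 and 132 without a filter, 6 and 6 with at least 10 counts in every library, 6 and 6 in limma-voom, and 16 and 17 in limma on log2(TPM + 1). The unadjusted p alone gave 3468, and leaving out a library gave 1 to 465 and 1 to 623. Of the genes meeting both limits, 32.8% were higher in the knockout group, against 68.4% with the block and 72.9% in DESeq2. The cause was not tested. Members without overlap numbered 3 to 5 with a library left out, 5 without knockout replicate 2. Smaller groups overlap less readily, and the share of all genes was not computed there. These counts therefore have no background to be read against.

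*Dnajb9* turned positive at 0.0038 in DESeq2 and with its size factors, 0.024 with upper quartile scaling, 0.050 with library size alone, 0.0030 with at least 10 counts in every library, 0.052 and 0.054 in limma on log2(TPM + 1) and log2(TPM + 0.1), and, with a library left out, ranged from −0.12 to 0.139 (positive at 0.038, 0.080 and 0.139 without knockout replicate 2, knockout replicate 1 and control replicate 3). *Herpud1* ranged from −0.13 to 0.022, positive without control replicate 3. No other member changed direction under these alternatives. The adjusted p limit of 0.1 was chosen after seeing the data.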
